A study of Rattus norvegicus with 12 samples.

Results

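The genes described here are 10 rat genes known as targets of the glucocorticoid receptor, Fkbp5, Nfil3, Zbtb16, Cebpd, Klf9, Klf15, Tsc22d3, Sgk1, Glul and Fmo2, followed in the pubocaudalis, a muscle of the pelvic floor. Each was found by its symbol in the deposited table of counts per gene, which gave 10 of the 30206 genes listed. All 10 had enough counts to be tested among the 14599 genes that passed the low-count filter. They were selected on earlier results of these same libraries, namely their difference between lactating and non-lactating rats, so the differences between lactating and non-lactating rats are given for them as a description, with no test. The values go against that description for some of them. Mean levels were higher with lactation for 9 of the 10 at 1 week and for 8 at 3 weeks, against 49.4% and 47.7% of all genes tested, but Klf9 differed little and its groups overlapped, Klf15 was not higher at 3 weeks, and Sgk1 was not higher at either time.

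Glucocorticoids, of which corticosterone is the main one in rats, enter cells and bind a receptor encoded by Nr3c1 that waits in the cytoplasm with heat shock proteins. The loaded receptor moves to the nucleus, binds DNA at glucocorticoid response elements and raises or lowers the transcription of its targets, several of which then restrain the same pathway. In skeletal muscle these hormones are known for lowering protein synthesis, breaking down amino acids and damping inflammation.

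The samples came from 3-month-old female Sprague-Dawley rats that were all pregnant and all received a simulated birth injury (SBI), a distention of the vagina by balloon late in pregnancy. Pups were removed after delivery in the groups named 1wk SBI and 3wk SBI, and stayed with the mother in 1wk SBI + Lac and 3wk SBI + Lac, with muscle taken 1 week or 3 weeks after the injury. Each group had 3 libraries, each of them the pooled RNA of 2 rats, 12 libraries in all. The study's legend speaks of technical replicates, while the labels name different rats for each pool, so that the errors below measure the spread between pools. No uninjured or never-pregnant muscle is among these libraries, and serum corticosterone was not analysed here. Because the tissue was sequenced in bulk, fewer cells of a type and less RNA per cell cannot be told apart.

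Total counts ran from 10082734 to 75634391 per library, and at 1 week every non-lactating library was deeper than every lactating one. The 1-week columns hold whole counts and the 3-week columns partly hold decimals, so that in a comparison of the 2 times the effect of time and that of counting cannot be told apart. Levels are normalized CPM, which adjust for library size by the TMM method on the assumption that most genes do not differ. The summed level of 9 markers of skeletal muscle fibers differed between the groups. It ran from 90888 to 144621 normalized CPM in 1wk SBI and from 142655 to 170010 in 1wk SBI + Lac. At 3 weeks it ran from 134133 to 184723 in 3wk SBI and from 199123 to 224429 in 3wk SBI + Lac. The differences of the 10 genes with lactation, and how their calls with time fared, are also given with each library scaled to this sum in place of TMM, a choice made after the data were seen. Values of single genes outside the 10 are not given under that scaling. Under that scaling the median of all genes shifted by -0.57 on the log2 scale in the lactation comparison at 1 week and by -0.42 in the one at 3 weeks. In the comparisons of 3 weeks with 1 week it shifted by -0.56 in non-lactating and by -0.42 in lactating rats.

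The bases ahead of a start site show what kind of promoter a gene has. RefSeq windows of 250 bases ahead of annotated starts, in the build GRCr8, were found for 8 of the 10 genes, 13 windows in all, and none was found for Zbtb16 or Cebpd. Printed here are the windows of Fkbp5, Nfil3, Glul and Fmo2, the genes whose levels differed by more than 2-fold between lactating and non-lactating rats at both time points, from 5′ to 3′ and ending at the base before the start. Capitals mark exact matches on either strand to the receptor half-site AGAACA, the CCAAT box, the GC box GGGCGG and the TATA box TATAAA. The window of Fkbp5 is chr20:6543556-6543805 on the minus strand, that of Nfil3 is chr17:12432126-12432375 on the plus strand, those of Glul are chr13:68519250-68519499 and chr13:68575816-68576065 on the plus strand, and that of Fmo2 is chr13:77777535-77777784 on the minus strand.
Fkbp5: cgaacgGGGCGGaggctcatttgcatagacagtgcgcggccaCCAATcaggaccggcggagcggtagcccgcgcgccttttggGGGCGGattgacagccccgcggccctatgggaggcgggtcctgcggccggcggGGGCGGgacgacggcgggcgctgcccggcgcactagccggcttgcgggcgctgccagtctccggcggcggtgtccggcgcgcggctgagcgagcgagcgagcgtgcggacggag
Nfil3: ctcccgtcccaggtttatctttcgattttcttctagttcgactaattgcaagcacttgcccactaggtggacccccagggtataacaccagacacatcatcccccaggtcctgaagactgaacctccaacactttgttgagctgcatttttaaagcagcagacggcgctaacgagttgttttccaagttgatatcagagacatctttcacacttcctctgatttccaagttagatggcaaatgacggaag
Glul, first start: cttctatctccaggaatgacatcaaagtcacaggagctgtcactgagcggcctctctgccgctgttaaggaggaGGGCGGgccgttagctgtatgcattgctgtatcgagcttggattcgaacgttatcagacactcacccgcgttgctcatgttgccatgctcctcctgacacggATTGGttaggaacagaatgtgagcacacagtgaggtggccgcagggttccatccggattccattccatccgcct
Glul, second start: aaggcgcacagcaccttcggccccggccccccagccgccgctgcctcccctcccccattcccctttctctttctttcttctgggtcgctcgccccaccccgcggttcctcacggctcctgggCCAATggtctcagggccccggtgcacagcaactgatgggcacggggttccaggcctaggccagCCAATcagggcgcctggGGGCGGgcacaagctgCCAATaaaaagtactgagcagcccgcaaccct
Fmo2: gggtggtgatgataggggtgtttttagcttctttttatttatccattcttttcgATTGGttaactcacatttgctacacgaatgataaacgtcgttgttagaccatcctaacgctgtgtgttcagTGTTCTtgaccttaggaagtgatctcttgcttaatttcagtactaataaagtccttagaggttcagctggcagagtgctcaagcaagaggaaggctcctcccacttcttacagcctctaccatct
The window of Fkbp5 is rich in G and C, which make up 76% of its bases, and holds 3 GC boxes and 1 CCAAT box. The 2 Glul windows hold 1 GC box each and between them 4 CCAAT boxes, while the Nfil3 window holds none of the motifs searched. The half-site AGAACA was found in 1 of the 13 windows, that of Fmo2, on the minus strand 125 to 120 bases before the start, against 17.5% of the 33469 windows of all genes. The full element, which is the half-site followed by any 3 bases and its reverse complement and so contains the half-site, was found in 0 of the 13 windows and in 0.012% of all windows. The D-box TTATGTAA, the sequence that the Nfil3 protein binds, was also found in 0 of the 13, against 0.828% of all. CCAAT boxes stood in 7 of the 13 windows and in 34% of all, GC boxes in 7 and 30.5%, and TATA boxes in 3 and 12.9%. A match is only a match of letters, and these short windows do not reach distant elements.

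Fkbp5 encodes a partner protein of the heat shock complex that lowers the receptor's affinity for its hormone, and is one of the most used markers of glucocorticoid action. At 1 week its levels were 6.41, 6.12 and 7.10 normalized CPM in 1wk SBI and 17.8, 22.5 and 11.9 in 1wk SBI + Lac. At 3 weeks they were 17.8, 13.4 and 14.3 in 3wk SBI and 46.2, 31.4 and 38.1 in 3wk SBI + Lac. Every lactating library was above every non-lactating one of the same time point, and the non-lactating libraries at 3 weeks reached the levels of the lactating ones at 1 week. The log2 fold change with lactation was 1.41 ± 0.20 (SE, n = 3 libraries a group) at 1 week and 1.36 ± 0.21 at 3 weeks, or 2.66-fold and 2.57-fold.

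Nfil3 encodes a leucine zipper protein that represses transcription and ties hormone and clock signals to immune and metabolic genes. Its levels at 1 week were 11.3, 10.9 and 12.6 normalized CPM in 1wk SBI and 24.3, 25.2 and 21.3 in 1wk SBI + Lac. By 3 weeks they were 12.0, 11.6 and 8.37 in 3wk SBI and 32.0, 25.8 and 25.3 in 3wk SBI + Lac. The 6 lactating libraries all lay above the 6 non-lactating ones, across both time points. The difference on the log2 scale was 1.02 ± 0.14 at 1 week and 1.42 ± 0.15 at 3 weeks.

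Zbtb16 encodes the zinc finger repressor also called PLZF, and Cebpd a leucine zipper factor that acts early in fat cell formation and in stress responses. Zbtb16 stood at 6.92, 7.12 and 12.5 normalized CPM in 1wk SBI and at 18.7, 20.5 and 14.4 in 1wk SBI + Lac. At 3 weeks its levels were 22.4, 13.9 and 14.9 in 3wk SBI and 31.7, 21.3 and 26.1 in 3wk SBI + Lac. The groups were apart at 1 week, while at 3 weeks the highest non-lactating library lay above the lowest lactating one. The log2 difference of Zbtb16 was 1.02 ± 0.25 at 1 week and 0.65 ± 0.25 at 3 weeks. Cebpd stood at 7.02, 6.93 and 7.99 normalized CPM in 1wk SBI and at 15.8, 13.6 and 12.3 in 1wk SBI + Lac. At 3 weeks it stood at 14.8, 8.92 and 14.0 in 3wk SBI and at 26.5, 31.4 and 18.7 in 3wk SBI + Lac. The groups did not overlap at either time, and the log2 difference was 0.93 ± 0.19 at 1 week and 1.04 ± 0.20 at 3 weeks.

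Klf9 and Klf15 encode zinc finger factors of one family, of which Klf15 is known for switching on the breakdown of branched-chain amino acids in muscle. Klf9 levels were 65.5, 73.8 and 105 normalized CPM in 1wk SBI and 106, 108 and 98.1 in 1wk SBI + Lac. The 3-week levels were 137, 116 and 113 in 3wk SBI and 141, 135 and 174 in 3wk SBI + Lac. The groups overlapped at both times, and the log2 difference was 0.36 ± 0.16 at 1 week and 0.30 ± 0.16 at 3 weeks, which turned to -0.17 and -0.10 when libraries were scaled to the fiber markers. Klf15 levels were 16.0, 22.1 and 26.4 normalized CPM in 1wk SBI and 42.2, 38.6 and 29.2 in 1wk SBI + Lac. Those at 3 weeks were 57.2, 45.9 and 38.8 in 3wk SBI and 53.3, 42.6 and 39.5 in 3wk SBI + Lac. All lactating libraries were higher at 1 week, and the 2 groups covered nearly the same range at 3 weeks. The log2 difference of Klf15 was 0.77 ± 0.20 at 1 week and -0.05 ± 0.20 at 3 weeks.

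Tsc22d3 encodes GILZ, a leucine zipper protein that carries part of the anti-inflammatory action of these hormones, and Sgk1 a kinase of ion transport and cell survival that responds to glucocorticoids and mineralocorticoids. Tsc22d3 levels were 46.6, 61.4 and 73.1 normalized CPM in 1wk SBI and 118, 109 and 92.0 in 1wk SBI + Lac. At 3 weeks they were 93.1, 84.2 and 86.6 in 3wk SBI and 118, 127 and 115 in 3wk SBI + Lac. The groups were apart at both times, with a log2 difference of 0.82 ± 0.14 at 1 week and 0.45 ± 0.14 at 3 weeks. Sgk1 went another way. Its levels were 39.0, 37.9 and 36.9 normalized CPM in 1wk SBI and 38.5, 29.9 and 35.5 in 1wk SBI + Lac, and at 3 weeks 25.0, 13.3 and 24.1 in 3wk SBI and 19.4, 16.5 and 16.4 in 3wk SBI + Lac. Lactating and non-lactating libraries overlapped at both times, and the log2 difference was -0.13 ± 0.17 at 1 week and -0.25 ± 0.18 at 3 weeks.

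Glul encodes glutamine synthetase, which joins ammonia to glutamate and lets muscle export nitrogen as glutamine, and Fmo2 a flavin monooxygenase that oxidizes foreign compounds. Glul levels were 411, 501 and 643 normalized CPM in 1wk SBI and 1206, 1286 and 941 in 1wk SBI + Lac. At 3 weeks they were 808, 844 and 616 in 3wk SBI and 2055, 1789 and 1496 in 3wk SBI + Lac. The lowest lactating library at 1 week was above the highest non-lactating library at 3 weeks, and the log2 difference with lactation was 1.14 ± 0.19 at 1 week and 1.24 ± 0.20 at 3 weeks. Fmo2 levels were 3.70, 5.60 and 7.36 normalized CPM in 1wk SBI and 14.6, 15.1 and 11.9 in 1wk SBI + Lac. At 3 weeks they were 11.3, 10.3 and 8.35 in 3wk SBI and 23.5, 20.2 and 20.1 in 3wk SBI + Lac. The groups did not overlap at either time, and the log2 difference was 1.32 ± 0.20 at 1 week and 1.12 ± 0.21 at 3 weeks, or 2.50-fold and 2.17-fold.

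**Figure D1:**
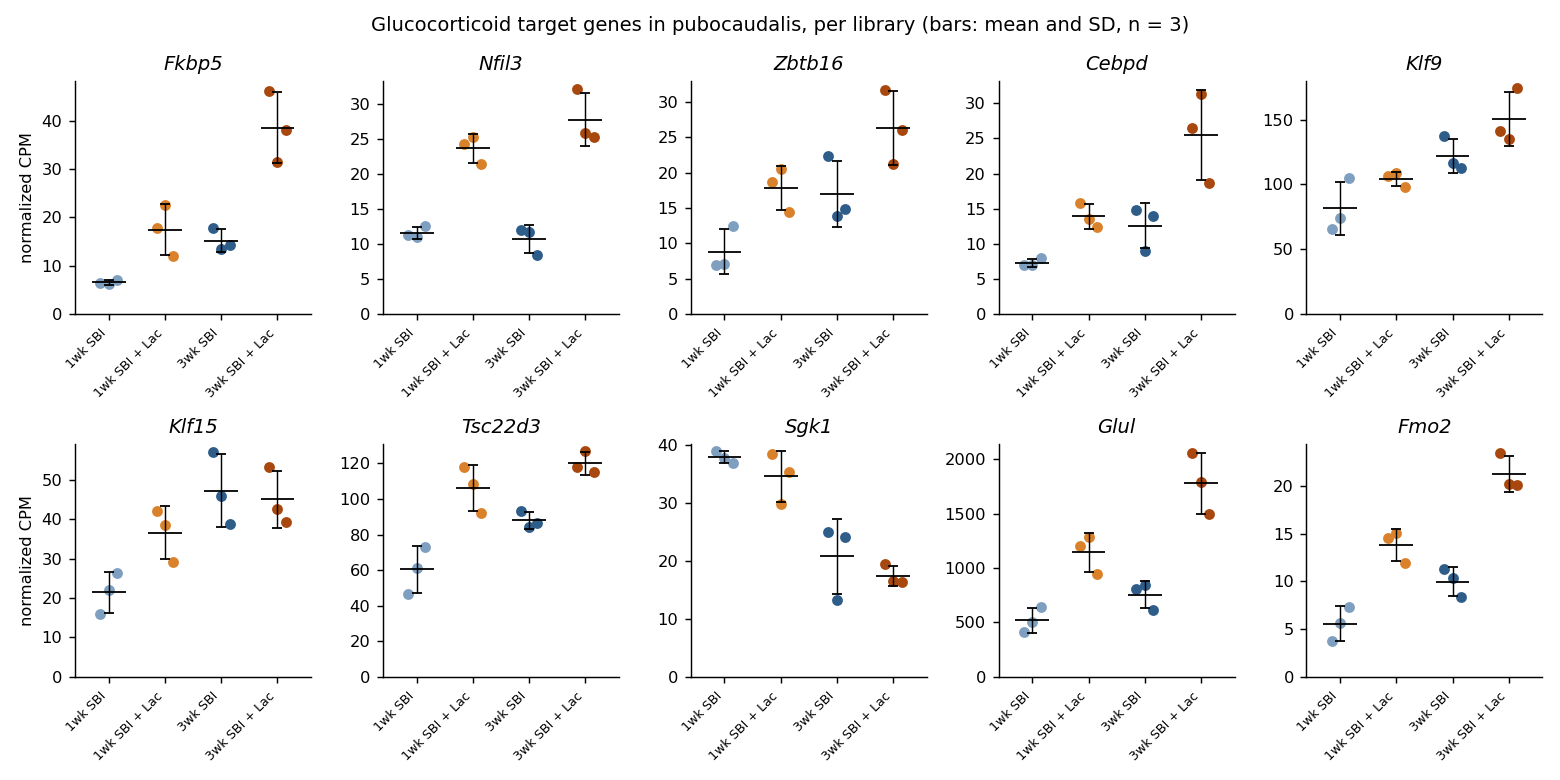
Normalized CPM of the 10 genes on linear axes that start at 0. Points are the 3 libraries of a group in the order of their replicate numbers, horizontal lines group means and whiskers 1 SD. Fkbp5, Nfil3, Glul and Fmo2 show lactating groups wholly above the non-lactating group of the same time point, while Sgk1 is lower at 3 weeks than at 1 week in both.

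The cutoffs used across all genes were an adjusted p of 0.05 and a log2 fold change of 1, and for the 10 genes the counts past them are a description of how they were chosen, not a test. At 1 week 4 of them (Fkbp5, Nfil3, Glul and Fmo2) lay past both cutoffs and higher in lactating rats, where 0.0890% of all genes tested were. At 3 weeks Cebpd joined these 4, against 0.205% of all genes. Libraries did not overlap, with the lactating ones higher, for 8 of the 10 genes at 1 week and 6 at 3 weeks, against 14.3% and 11.9% of all genes. The median log2 difference of the 10 was 0.97 at 1 week and 0.85 at 3 weeks, beside -0.0038 and -0.02 over all genes. Nothing is read from these counts. The genes just inside the cutoff of 1 were Nfil3 at 1.02 at 1 week and Cebpd at 1.04 at 3 weeks, and just outside it stood Cebpd at 0.93 at 1 week and Zbtb16 at 0.65 at 3 weeks. Zbtb16, at 1.02 at 1 week, lay past the fold change cutoff but not among the 4. Over the 19 ways of processing tried, counting fits with a library left out, it lay past both cutoffs in 3. The study lists it among the genes higher in lactating rats at 1 week.

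The same count at 1 week, again as a description, was 0 without replicate 2 of 1wk SBI or without replicate 1 of 1wk SBI + Lac, 1 without replicate 2 of 1wk SBI + Lac, 2 without replicate 1 of 1wk SBI and 5 without replicate 3 of 1wk SBI. At 3 weeks it was 3 without replicate 1 of 3wk SBI + Lac and 4 or 5 without any other library of the 2 groups.

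Within groups the 10 genes tended to be high or low in the same library. Replicate 3 of 1wk SBI had the highest level for 9 of the 10 genes, and replicate 3 of 1wk SBI + Lac the lowest for 9. Among the 3 libraries of 3wk SBI, replicate 1 was highest for 9, while replicates 2 and 3 were lowest for 5 each. In 3wk SBI + Lac, replicate 1 was highest for 7 and replicate 3 lowest for 7. The share of all genes with the same order was not counted, so the order is not read as a property of the 10. Replicate 3 of 1wk SBI also had the highest fiber marker sum of its group, 144621 normalized CPM against 90888 and 100322, and replicate 3 of 1wk SBI + Lac the lowest, 142655 against 169973 and 170010. At 3 weeks replicate 1 of 3wk SBI, with 169378, was between the other two, and so was replicate 1 of 3wk SBI + Lac, with 215160 against 199123 and 224429. Other markers followed the same order at 1 week. Replicate 3 of 1wk SBI had the highest adipocyte and red cell sums of its group and the lowest fibroblast sum. In replicate 3 of 1wk SBI + Lac these were the lowest, the lowest and the highest. The part of the fiber markers in these levels was not tested beyond the scaling that follows, and that of the other markers was not tested.

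**Figure D2:**
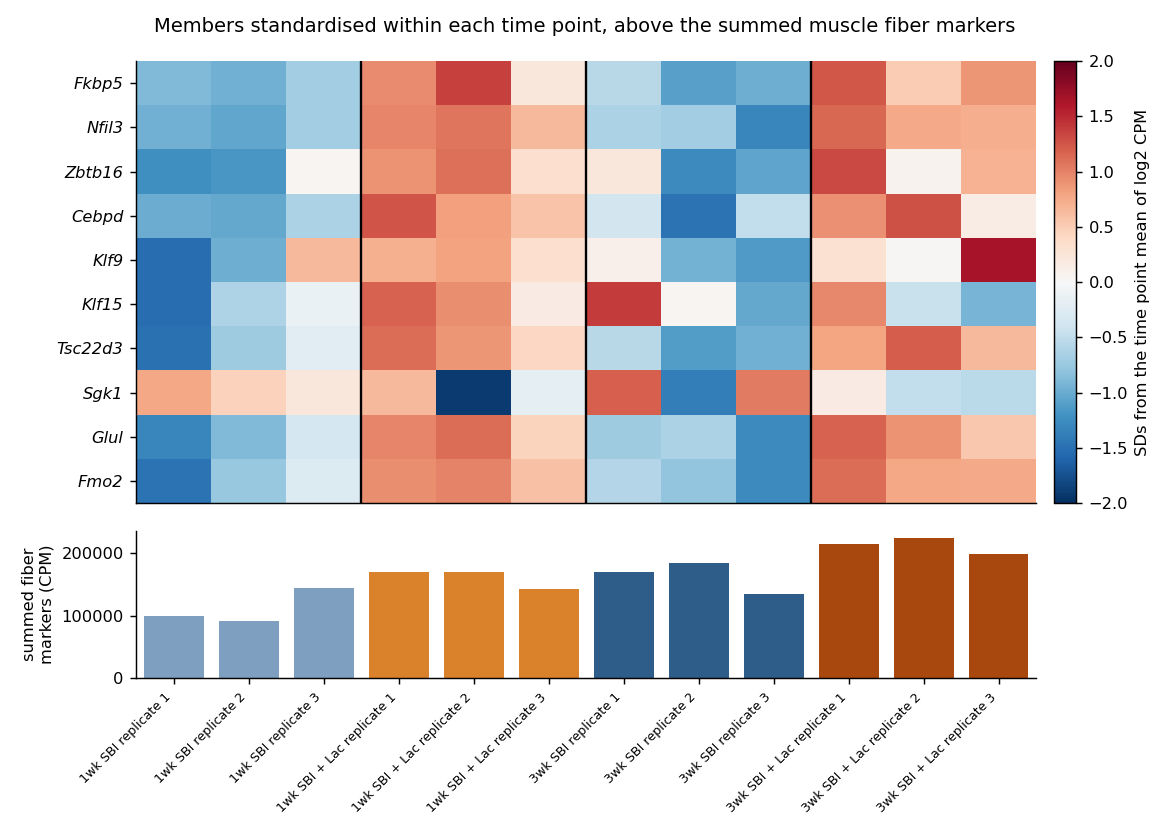
Rows of the upper panel are the 10 genes and columns the 12 libraries, with color giving log2 CPM in SDs from the mean of the 6 libraries of the same time point. Bars below give the summed fiber markers in normalized CPM. Replicate 3 of 1wk SBI is the least blue of its group and has its tallest bar, and the Sgk1 row does not follow the others.

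Scaling to the fiber markers shifts all genes of a comparison by a similar amount. It moved the median of all genes by -0.57 at 1 week and by -0.42 at 3 weeks, and all 10 differences with lactation moved downward with it. The positive ones became smaller or, for Klf9, turned negative, and those of Sgk1, and of Klf15 at 3 weeks, became more negative. Past both cutoffs were then 0 of the 10 genes at either time, where TMM gave 4 and 5. The share of all genes past both cutoffs under this scaling was not counted, so that drop is not read as a property of the 10. Fkbp5 then differed by 0.83 ± 0.24 on the log2 scale at 1 week and by 0.94 ± 0.24 at 3 weeks. Nfil3 differed by 0.46 ± 0.21 and 1.00 ± 0.22, Glul by 0.60 ± 0.15 and 0.85 ± 0.15, and Fmo2 by 0.79 ± 0.24 and 0.70 ± 0.24. Relative to fiber markers the means of these 4 genes, and of Zbtb16, Cebpd and Tsc22d3, were higher in lactating rats at both times. Zbtb16 differed by 0.50 ± 0.24 and 0.23 ± 0.24, Cebpd by 0.36 ± 0.25 and 0.57 ± 0.26, and Klf15 by 0.22 ± 0.20 and -0.46 ± 0.21. Tsc22d3 differed by 0.27 ± 0.18 and 0.03 ± 0.18, and Sgk1 by -0.70 ± 0.26 and -0.70 ± 0.27. The median of the 10 genes was 0.41 at 1 week and 0.40 at 3 weeks under this scaling, beside -0.58 and -0.44 over all genes. Which scaling is nearer to the change per fiber cannot be told from these libraries.

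**Figure D3:**
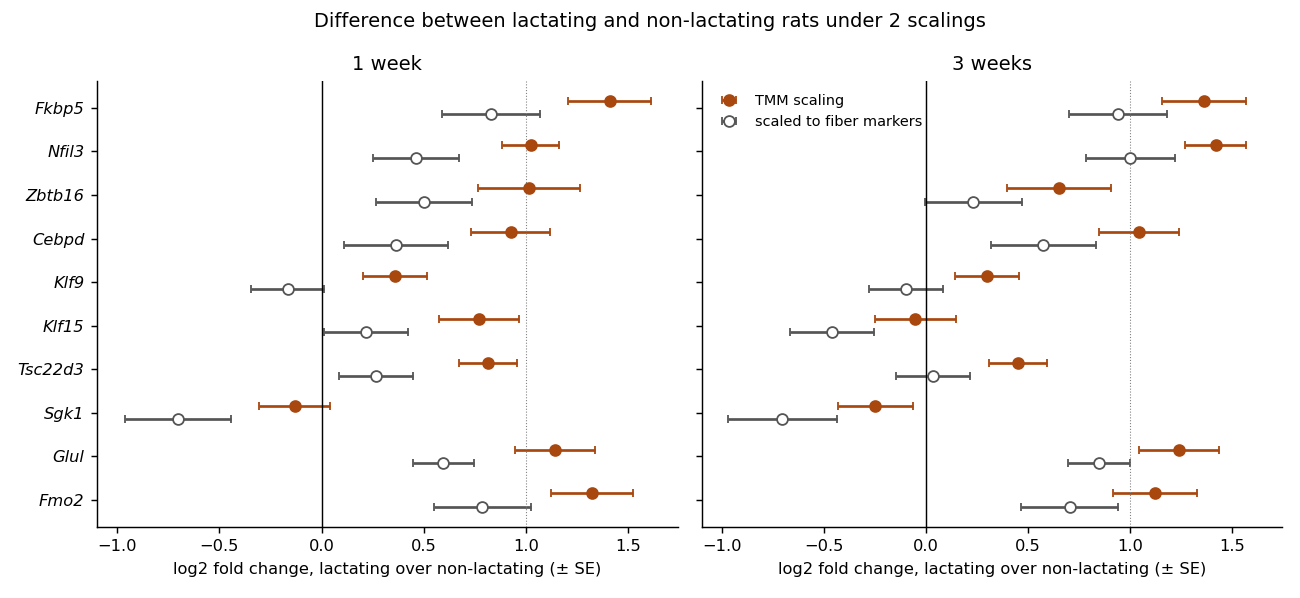
Log2 fold change of each gene, lactating over non-lactating, at 1 week (left) and 3 weeks (right), with bars of 1 SE and n = 3 libraries a group. Filled points use TMM scaling and open points libraries scaled to the summed fiber markers. Under the fiber scaling every gene moves left, as the median of all genes does, and Klf9 crosses 0 at both times.

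Markers of other cell types differed as well, and their part in the results was not tested. For the counts given for them, 18.9% of all genes at 1 week and 21.1% at 3 weeks had an unadjusted p under 0.05. The summed level of 8 adipocyte markers ran from 169 to 319 normalized CPM in 1wk SBI and from 304 to 428 in 1wk SBI + Lac, and from 342 to 413 in 3wk SBI and from 528 to 593 in 3wk SBI + Lac. Of the 7 adipocyte markers tested, 2 were higher and 5 lower with lactation at 1 week, 4 higher and 3 lower at 3 weeks, and 0 passed both cutoffs in edgeR or DESeq2, with 1 and 2 at an unadjusted p under 0.05. All 8 macrophage markers were lower with lactation at both times, 1 of them past both cutoffs at 3 weeks, and their sum ran from 500.3 to 528 in 1wk SBI against 289 to 425 in 1wk SBI + Lac. At 3 weeks the macrophage sums overlapped, from 354 to 816 in 3wk SBI and from 319 to 560 in 3wk SBI + Lac. The 6 fibroblast markers were also all lower at both times, with 0 past both cutoffs in edgeR, 3 at an unadjusted p under 0.05 at 3 weeks and 0 at 1 week, and 1 past both cutoffs in DESeq2 at 3 weeks. All 6 T cell markers were lower at both times too, with 0 past both cutoffs in edgeR or DESeq2 and 0 and 1 at an unadjusted p under 0.05. The 4 red cell markers were all higher with lactation at 1 week, with no overlap of libraries and a median log2 difference of 1.26. Their sum ran from 242 to 414 normalized CPM in 1wk SBI and from 556 to 780 in 1wk SBI + Lac, and from 97.3 to 183 in 3wk SBI and from 132 to 242 in 3wk SBI + Lac. At 1 week 0 of the 4 passed both cutoffs in edgeR and 2, Hba-a1 and Hbb, in DESeq2, while all 4 had an unadjusted p under 0.05. With time, 1 of them fell past both cutoffs in non-lactating rats and 3 in lactating rats. Of 6 endothelial markers 2 were higher at 1 week and 3 at 3 weeks, and of 4 smooth muscle markers 2 and 4, with 0 past both cutoffs in edgeR or DESeq2 and, at an unadjusted p under 0.05, 0 and 2 endothelial and 1 and 0 smooth muscle markers. Milk protein transcripts summed to at most 0.0120 normalized CPM in the 6 non-lactating libraries and to between 0.330 and 39.4 in the 6 lactating ones. No marker of these lists was at 0 in every library. With library sizes taken without red cell, milk and mitochondrial genes, the counts of genes past both cutoffs stayed at 4 and 5.

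The change from 1 week to 3 weeks is another comparison than the one that chose the genes and was tested within each group, but it is not independent of the choice. It uses the same libraries, and low values in 1wk SBI enlarge both the difference with lactation at 1 week and the rise with time in non-lactating rats. Likewise, high values in 3wk SBI + Lac enlarge both the difference at 3 weeks and the rise with time in lactating rats. The shares of all genes are printed beside the counts, and an excess over them is not read as a property of the 10 genes. In non-lactating rats Fkbp5 rose 2.30-fold (log2 1.20 ± 0.21, adjusted p = 0.00841) and Klf15 rose 2.19-fold (1.13 ± 0.20, adjusted p = 0.00923). These 2 of the 10 genes passed both cutoffs, against 0.363% of all genes tested. On the adjusted p alone, 6 of the 10 rose, against 2.63% of all genes, and 1 fell, against 2.42%. Besides Fkbp5 and Klf15, the genes that rose were Cebpd by 0.78 ± 0.20 on the log2 scale (adjusted p = 0.0351), Klf9 by 0.58 ± 0.16 (adjusted p = 0.0441), Tsc22d3 by 0.54 ± 0.14 (adjusted p = 0.0391) and Fmo2 by 0.83 ± 0.21 (adjusted p = 0.0329). The gene that fell was Sgk1, by 0.87 ± 0.18 on the log2 scale (adjusted p = 0.0158). Zbtb16 (0.93 ± 0.26, adjusted p = 0.0563), Glul (0.54 ± 0.19, adjusted p = 0.119) and Nfil3 (-0.16 ± 0.15, adjusted p = 0.591) did not pass. The median of the 10 was 0.68.

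In lactating rats Fkbp5 rose 2.22-fold (log2 1.15 ± 0.20, adjusted p = 0.0134) and was the 1 gene of the 10 past both cutoffs, against 0.0890% of all genes. On the adjusted p alone, 2 of the 10 rose, against 0.678% of all genes, and 1 fell, against 1.33%. Cebpd was the other gene that rose, by 0.90 ± 0.19 on the log2 scale (adjusted p = 0.0315), and Sgk1 fell by 0.99 ± 0.18 (adjusted p = 0.0158). Glul changed by 0.64 ± 0.19 (adjusted p = 0.0981), Fmo2 by 0.62 ± 0.20 (adjusted p = 0.113), Zbtb16 by 0.56 ± 0.25 (adjusted p = 0.250) and Klf9 by 0.52 ± 0.16 (adjusted p = 0.0943). None of these 4 passed. Klf15 (0.31 ± 0.20, adjusted p = 0.442), Nfil3 (0.24 ± 0.14, adjusted p = 0.391) and Tsc22d3 (0.18 ± 0.14, adjusted p = 0.538) changed least. All 3 had a negative sign when libraries were scaled to the fiber markers, which moved the median of all genes by -0.42 here. The median of the 10 genes was 0.54.

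These calls differed in how often they held with a library left out. Such fits have fewer libraries, so a lost call does not show that it rested on the library left out. With each of the 6 libraries compared left out in turn, Klf15 in non-lactating rats was past both cutoffs in 4 of 6 fits and Fkbp5 in 5 of 6, and in lactating rats Fkbp5 in 4 of 6. On the adjusted p alone, Klf15 passed in 6 of 6 and Fkbp5 in non-lactating rats in 5 of 6, failing without replicate 1 of 1wk SBI (adjusted p = 0.0502). Fkbp5 in lactating rats passed it in 5 of 6, failing without replicate 1 of 3wk SBI + Lac (adjusted p = 0.0681). Sgk1 passed in 4 of 6 fits in non-lactating rats and in 1 of 6 in lactating rats. Cebpd, Klf9, Tsc22d3 and Fmo2 each passed in 2 of 6 in non-lactating rats, and Cebpd in 1 of 6 in lactating rats. Scaled to the fiber markers, Fkbp5 changed by 0.66 (adjusted p = 0.0435) and Klf15 by 0.58 (adjusted p = 0.0381) in non-lactating rats, and Fkbp5 by 0.76 in lactating rats (adjusted p = 0.0551). That scaling moved the median of all genes by -0.56 in non-lactating and by -0.42 in lactating rats, and the values that follow include this shift. Sgk1 fell by 1.40 on the log2 scale in non-lactating rats (adjusted p = 0.00270) and by 1.41 in lactating rats (adjusted p = 0.00828) under that scaling, and was the 1 gene past both cutoffs in each. The other rises did not pass the adjusted p under it, and Nfil3 fell by 0.71 in non-lactating rats (adjusted p = 0.0221).

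**Figure D4:**
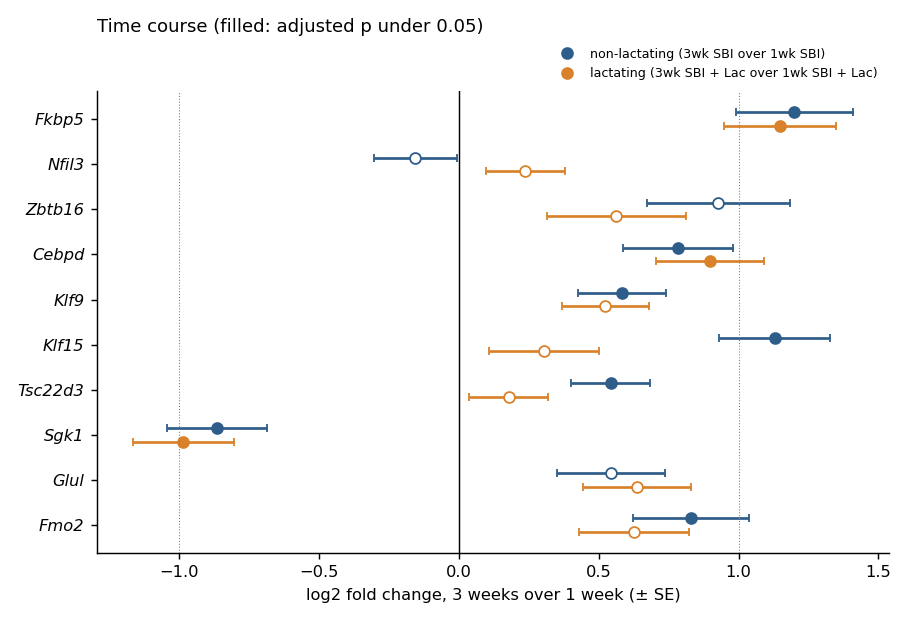
Log2 fold change from 1 week to 3 weeks for the 10 genes in non-lactating rats (blue) and lactating rats (orange), under TMM scaling, with bars of 1 SE and n = 3 libraries a group. Filled points have an adjusted p under 0.05, which Fkbp5, Cebpd and Sgk1 reach in both groups, with Sgk1 below 0.

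The difference between the lactation effects at the 2 time points does not depend on a counting difference shared by both groups of a time point. It is made of the 2 effects that the genes were chosen on, and choosing genes raised at both times favors small differences, so it is given for the 10 genes as a description. In edgeR and in DESeq2 0 of the 10 were past both cutoffs, which does not show that the effects were alike. Over all genes, 0.00685% passed with a lower effect at 3 weeks and 0% with a higher one. Klf15 was the 1 gene of the 10 with an unadjusted p under 0.05, against 4.42% of all genes, with a difference of -0.82 ± 0.28. That of Nfil3 was 0.39 ± 0.20, that of Tsc22d3 -0.37 ± 0.20 and that of Zbtb16 -0.36 ± 0.35. For Fkbp5, Glul and Cebpd, the differences of -0.05 ± 0.29, 0.09 ± 0.27 and 0.11 ± 0.28 were smaller than their errors.

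The genes whose profile over the 12 libraries was most like the mean profile of the 10, each standardised within its time point, were Sult1a1, Mcat, Eif4ebp2, Azi2 and Uckl1. Their root mean square distances from it were 0.203, 0.204, 0.215, 0.226 and 0.227 SDs, against a median of 1.27 over the 12319 genes compared. Sult1a1, a sulfotransferase, stood at 5.26, 7.96 and 10.1 normalized CPM in 1wk SBI and at 18.6, 23.8 and 14.9 in 1wk SBI + Lac, and at 19.1, 14.7 and 16.5 in 3wk SBI and 28.5, 24.2 and 24.7 in 3wk SBI + Lac. Sult1a1 was picked for its likeness over these same libraries, so what it shares with the 10 genes follows from that choice. Such shared features are lactating libraries above the non-lactating ones of the same time point, and a replicate 3 of 1wk SBI that was the highest of its group. Of the 10 themselves, Zbtb16 was nearest to their mean, at rank 7 (distance 0.238), followed by Fmo2, Tsc22d3, Glul, Fkbp5 and Nfil3 at ranks 9 to 29 and Cebpd at rank 94. Klf9 (rank 695), Klf15 (rank 2267) and Sgk1 (rank 7924, distance 1.44) were farther. The 10 genes form that mean, so their ranks only describe how much each one follows the rest.

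Of 38 other genes listed as induced by glucocorticoids, 33 were tested, and in edgeR 0 passed both cutoffs at 1 week and 1 at 3 weeks, with a lower level. Of all genes, 0.164% were lower past both cutoffs at 1 week and 0.534% at 3 weeks. At an unadjusted p under 0.05 there were 13 at either time, against 18.9% and 21.1% of all genes, and DESeq2 put 2 past both cutoffs at 1 week (Angptl4 and Pdk4) and 3 at 3 weeks. On the adjusted p alone, 1 rose at 1 week, against 0.336% of all genes, and 3 rose and 2 fell at 3 weeks, against 1.35% and 1.19%. Their median log2 difference was 0.25 at 1 week and 0.07 at 3 weeks. Fam107a, an actin-binding stress response gene, was higher in lactating rats at both times (log2 0.93 ± 0.17, adjusted p = 0.0300 at 1 week and 0.89 ± 0.18, adjusted p = 0.0179 at 3 weeks). At 3 weeks Eif4ebp1, which holds back translation, rose by 0.60 ± 0.10 (adjusted p = 0.00934), Pik3r1, a regulatory subunit of PI3 kinase, rose by 0.77 ± 0.16 (adjusted p = 0.0253) and Rgs2, a regulator of G protein signaling, fell by 0.77 ± 0.15 (adjusted p = 0.0174).

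Several well-known targets did not pass in the comparison of lactating with non-lactating rats. Per1, a clock gene with a strong response to the receptor, differed by 0.34 at 1 week and 0.56 at 3 weeks (adjusted p = 0.530 and 0.284), and Ddit4, an inhibitor of mTOR signaling, by 0.66 and 0.31 (adjusted p = 0.155 and 0.501). Of the ubiquitin ligases of muscle wasting, Trim63 differed by 0.21 and -0.04 (adjusted p = 0.530 and 0.928) and Fbxo32 by 0.38 and -0.27 (adjusted p = 0.620 and 0.729). Foxo1, their transcription factor, differed by 0.22 and 0.54 (adjusted p = 0.669 and 0.255), and Mstn, the muscle growth inhibitor myostatin, by 0.51 and 0.93 (adjusted p = 0.296 and 0.0783). Cdkn1a, a brake on the cell cycle, differed by -0.78 and -1.19 (adjusted p = 0.400 and 0.196). Bcl6, a repressor, differed by 0.42 and 0.07, Errfi1, an inhibitor of the EGF receptor, by 0.04 and 0.40, Lpin1, an enzyme of fat synthesis, by 0.35 and 0.22, and the metallothionein Mt2A by -0.10 and -0.14, with adjusted p-values from 0.209 to 0.930 over these 4 genes.

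**Figure D5:**
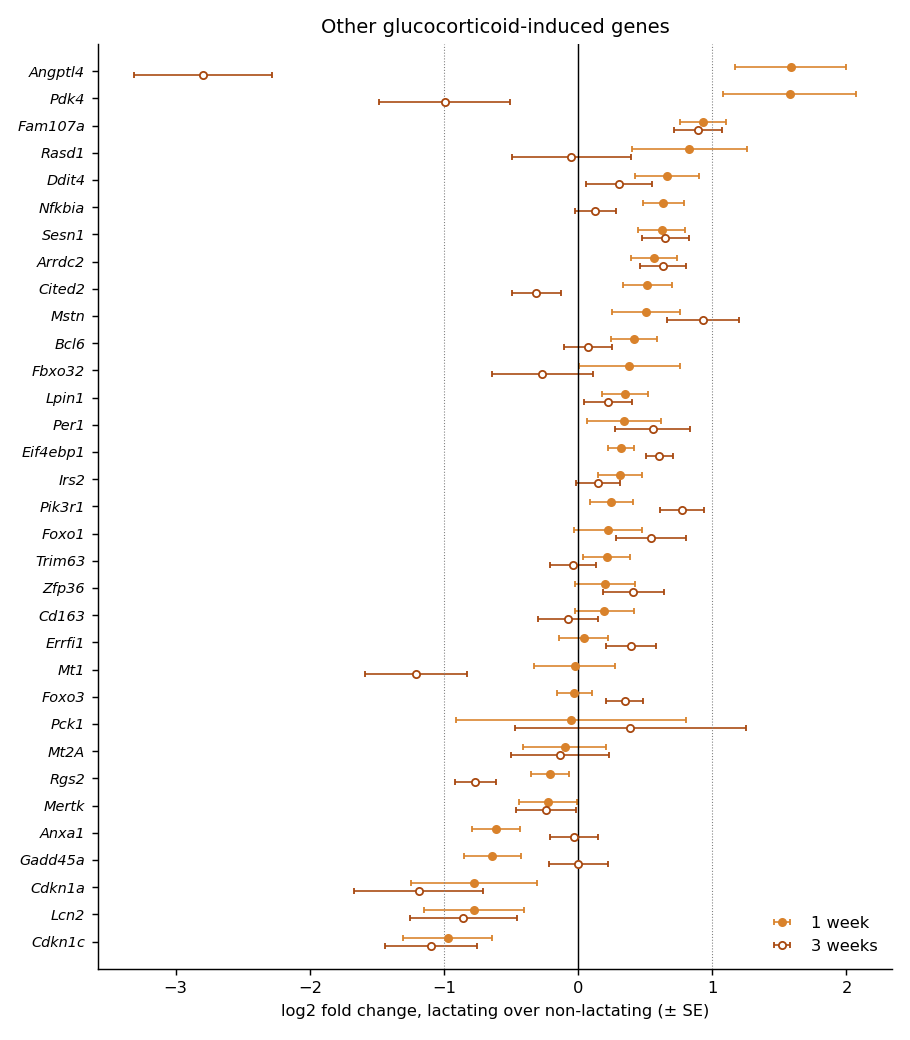
Log2 fold change of the 33 other glucocorticoid-induced genes tested, lactating over non-lactating, at 1 week (filled) and 3 weeks (open), sorted by the value at 1 week, with bars of 1 SE and n = 3 libraries a group. Most genes lie within 1 of 0, and Angptl4 lies above 1 at 1 week and below -1 at 3 weeks.

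Angptl4, a secreted inhibitor of lipoprotein lipase, moved in opposite directions at the 2 times. It stood at 0.785, 1.03 and 1.69 normalized CPM in 1wk SBI and at 3.34, 5.26 and 1.86 in 1wk SBI + Lac, a log2 difference of 1.58 ± 0.42 (adjusted p = 0.0745). At 3 weeks it stood at 1.61, 2.60 and 2.83 in 3wk SBI and at 0.391, 0.211 and 0.660 in 3wk SBI + Lac, where it fell by 2.80 ± 0.51 on the log2 scale with lactation (adjusted p = 0.0131), on 6 to 13 counts per lactating library. Without replicate 1 or replicate 2 of 3wk SBI + Lac the adjusted p was 0.0630 or 0.0752. Pdk4, which turns muscle from glucose to fat as a fuel, differed by 1.58 ± 0.50 at 1 week (adjusted p = 0.135) and -0.996 ± 0.49 at 3 weeks (adjusted p = 0.280).

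The genes of both receptors did not pass, while 2 partners in the receptor complex passed the adjusted p, Ppid at both times and Fkbp4 at 3 weeks only. Nr3c1, which encodes the glucocorticoid receptor, stood at 118 to 122 normalized CPM in 1wk SBI, 119 to 131 in 1wk SBI + Lac, 144 to 154 in 3wk SBI and 123 to 133 in 3wk SBI + Lac. Its log2 difference with lactation was 0.06 ± 0.09 at 1 week and -0.22 ± 0.09 at 3 weeks (adjusted p = 0.773 and 0.195), and at 3 weeks its lactating libraries were all below the non-lactating ones. The mineralocorticoid receptor gene Nr3c2 differed by 0.17 and -0.04 (adjusted p = 0.393 and 0.884). Hsd11b1, which regenerates active corticosterone inside cells, differed by -0.06 and -0.59 (adjusted p = 0.907 and 0.108), and Hsd11b2, which inactivates it, by -0.95 and -1.17 (adjusted p = 0.156 and 0.127). Of the 24 genes of receptors, chaperones and corticosterone enzymes, 0 passed both cutoffs with lactation at either time in edgeR or DESeq2. On the adjusted p alone 1 rose at 1 week and 2 at 3 weeks, against 0.336% and 1.35% of all genes. At an unadjusted p under 0.05 there were 7 and 12, against 18.9% and 21.1% of all genes. Ppid, a relative of Fkbp5 in the receptor complex, differed by 0.64 and 0.62 (adjusted p = 0.0286 and 0.0150), and Fkbp4, which acts opposite to Fkbp5 on the receptor, by 0.44 and 0.57 (adjusted p = 0.0988 and 0.0354). Over the edgeR and DESeq2 alternatives, the adjusted p of Fkbp4 at 3 weeks ran from 0.00190 to 0.116.

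Among 35 family relatives of the 10 genes that were tested, such as other Fkbp, Klf, Fmo and Cebp genes, 0 passed both cutoffs in either comparison in edgeR or DESeq2, with 8 at 1 week and 9 at 3 weeks at an unadjusted p under 0.05, beside 18.9% and 21.1% of all genes. The counts at that threshold for the next 3 lists stand beside the same shares. The median log2 differences of the 35 family relatives were -0.05 and -0.03. The 10 tested genes that glucocorticoids are known to repress, most of them cytokines, adhesion molecules and proteases of inflammation, had lower means with lactation for 9 at 1 week and 8 at 3 weeks. Of all genes, 49.4% and 47.7% had higher means. The median of these 10 was -0.81 and -0.60, and 0 passed both cutoffs in edgeR, with 3 and 1 at an unadjusted p under 0.05, while DESeq2 put Mmp9 and Vcam1 past both cutoffs at 1 week. All tested macrophage, T cell and fibroblast markers also had lower means at both times. Their medians were -0.52, -0.84 and -0.44 at 1 week and -0.46, -0.98 and -0.77 at 3 weeks, and the part of these cells was not tested. Of 11 enzymes of amino acid breakdown and transfer, all 11 had higher means with lactation at 1 week (median 0.27), but 0 passed both cutoffs there in edgeR or DESeq2, with 4 at an unadjusted p under 0.05. At 1 week all 9 fiber markers also had higher means (median 0.50). At 3 weeks 6 of the 11 enzymes were higher and 5 lower (median 0.0065), with 2 at an unadjusted p under 0.05, and Prodh, which oxidizes proline, rose by 1.62 ± 0.39 (adjusted p = 0.0422), from 1.39, 1.67 and 0.936 normalized CPM in 3wk SBI to 5.41, 3.28 and 2.97 in 3wk SBI + Lac, a call that held in 1 of 6 fits with a library left out, the one without replicate 2 of 3wk SBI. Of the 18 clock genes, 0 passed both cutoffs with lactation in edgeR or DESeq2, with 1 at 1 week and 6 at 3 weeks at an unadjusted p under 0.05. Per2 was the 1 that passed on the adjusted p, at 3 weeks (0.75, adjusted p = 0.0448).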

How the data were processed

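Pubocaudalis RNA was sequenced from polyA-selected, stranded libraries in 4 groups of 3 pools. The authors deposited 1 table of counts per gene, not normalized for library size. Per the file headers, each column is 1 library and its name matches 1 sample title. What the authors deposited for 1 week are whole counts. What the authors deposited for 3 weeks are partly decimal values, read here as estimated counts (expected counts) and rounded for the tests. The submitters' processing notes name Salmon. The genome build and annotation are not given in the sources used here, so no coordinates of counted genes are printed.

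The 10 genes and all gene lists were chosen with earlier results of these data known. Counts were analysed with edgeR 4.0.16 in R 4.3.3: filterByExpr, TMM, a robust quasi-likelihood fit to all 12 libraries, and Benjamini-Hochberg adjustment over 14599 genes. The design assumed whole counts throughout. Cutoffs were an adjusted p of 0.05 and an absolute log2 fold change of 1. Standard errors come from the fold change and the F statistic. Lactation effects on the 10 genes, and the difference between them, are a description because the genes were chosen on these effects. Log2 CPM profiles used a prior count of 2 and genes of at least 1 CPM on average.

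Named genes were the 10, a set list of receptor, enzyme and target genes, up to 3 genes per pathway list with the largest change past both cutoffs, and the 5 nearest profiles. Other genes named with a value passed the adjusted p and were picked after their values were seen. Dusp1, Icam1 and Bckdk were not analysed here. The edgeR test was checked on simulated data with 14370 genes for the comparison at 1 week, where it called 99 of 100 genes changed by a log2 of 1.5, 100 of 100 changed by 3, and 3 unchanged genes. Changes were made only in genes that were not low in level, so the check does not cover low genes or smaller changes. Replicate numbers did not pair the samples: correlations of same-numbered libraries ran from -0.233 to 0.200. Alternatives were DESeq2 1.42.0, other normalizations and filters, a replicate block, thinning to equal depth and leaving libraries out. Scaling to fiber markers was added after the data were seen. Promoter windows and their letters come from RefSeq in the build GRCr8, with starts as annotated there. The errors printed with fold changes measure the spread between pools.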

Additional observations from a re-analysis of the deposited data

Results flagged for a closer look

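Angptl4, the secreted lipoprotein lipase inhibitor among the other glucocorticoid-induced genes, was the 1 gene named here whose lactating libraries lay wholly above the non-lactating ones at 1 week and wholly below them at 3 weeks. The difference between its lactation effects was -4.38 ± 0.66 on the log2 scale (edgeR, adjusted p = 0.0524), and its levels rest on 6 to 13 counts in each library of 3wk SBI + Lac. The adjusted p ran from 1.43e-06 (DESeq2 on all libraries) to 0.464 (libraries thinned to equal depth) over the alternatives, with a negative difference in each. Pdk4 had the same signs, with a difference of -2.57 ± 0.70 (adjusted p = 0.999).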

How the results depend on the processing

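The counts of the 10 genes past both cutoffs kept to within 1.5 times under RLE and upper-quartile normalization, both DESeq2 fits, no low-count filter, unrounded 3-week values and library sizes without erythroid, milk and mitochondrial genes. Scaled to the fiber markers, 0 were higher with lactation at 1 week and 0 at 3 weeks, 0 rose with time in either group, and 1 (Sgk1) fell in each. The median of all genes also moves downward in these comparisons under that scaling, and the share of all genes past both cutoffs was not counted there. Sgk1 also fell past both cutoffs in lactating rats with at least 10 counts in every library (1 gene) and after thinning (1 gene). With no fold change cutoff, 6 rose and 1 fell in non-lactating rats, and 2 rose and 1 fell in lactating rats. The replicate block, where the numbers share no source, left 2 genes higher with lactation at 1 week in place of 4 and changed no other count of the 10 by over 1.5 times. With single libraries left out, the numbers higher with lactation ran from 0 to 5 at 1 week and from 3 to 5 at 3 weeks. With time, 0 to 4 rose and 0 to 1 fell in non-lactating rats, and 0 to 2 rose and 0 to 1 fell in lactating rats. The share of all genes past both cutoffs in the fits with a library left out was not counted.

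Among the genes of the other 6 lists, the numbers higher and lower with lactation at 1 week, both 0, were 2 and 2 in DESeq2 on all libraries, 1 and 3 in DESeq2 on the libraries compared, and 1 and 1 after thinning. The number lower was 1 with no low-count filter, 2 in edgeR on only the libraries compared and 13 scaled to the fiber markers, and the number higher was 2 with no fold change cutoff. At 3 weeks, with 1 higher and 1 lower, the number higher became 0 after thinning, scaled to the fiber markers or with the replicate block, and 7 with no fold change cutoff. The number lower became 3 and 4 in the 2 DESeq2 fits, 0 with at least 10 counts in every library or after thinning, 9 scaled to the fiber markers and 4 with no fold change cutoff. In non-lactating rats 3 rose and 4 fell with time. These became 1 rising after thinning or scaled to the fiber markers, 19 rising with no fold change cutoff, 2 falling with at least 10 counts in every library and 8 falling scaled to the fiber markers. In lactating rats 1 rose and 4 fell. Those rising were 2 and 3 in the 2 DESeq2 fits, 2 on only the libraries compared, 0 scaled to the fiber markers and 6 with no fold change cutoff, and 1 fell with at least 10 counts in every library. The difference between lactation effects had 1 gene lower in DESeq2, with no low-count filter and scaled to the fiber markers, where the main count was 0. With single libraries left out, these counts ran from 0 to 3 higher and 0 to 4 lower with lactation at 1 week, from 0 to 1 and 0 to 2 at 3 weeks, from 0 to 5 rising and 3 to 6 falling in non-lactating rats, from 0 to 1 and 1 to 3 in lactating rats, and from 0 to 2 for a lower effect at 3 weeks. The causes of these moves were not tested.

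Signs turned for some values that did not pass the test. Scaled to the fiber markers, the difference with lactation of Klf9 was -0.17 at 1 week and -0.0984 at 3 weeks, from 0.36 and 0.30. Also scaled to the fiber markers, the change with time was -0.17 for Nfil3, -0.10 for Klf15 and -0.23 for Tsc22d3 in lactating rats and -0.0130 for Glul in non-lactating rats, and the difference between lactation effects was 0.107 for Fkbp5 and 0.0678 for Klf9. That of Fmo2 was 0.0546 after thinning. With single libraries left out, this difference ran from -0.27 to 0.17 for Fkbp5, from -0.0670 to 0.29 for Cebpd, from -0.29 to 0.0740 for Klf9, from -0.35 to 0.0302 for Sgk1, from -0.0923 to 0.24 for Glul and from -0.45 to 0.0235 for Fmo2. The change of Nfil3 with time in non-lactating rats ran from -0.24 to 0.0267. The difference with lactation at 1 week ran from -0.00916 to 0.0963 for Errfi1, from -0.36 to 0.41 for Mt2A and from -0.12 to 0.0763 for Hsd11b1, and at 3 weeks from -0.32 to 0.00834 for Mt2A, from -0.16 to 0.0676 for Trim63, from -0.0598 to 0.18 for Bcl6 and from -0.11 to 0.0378 for Nr3c2. At 3 weeks depth limits low genes, since the smallest library holds 10082734 counts.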
